A study of Mus musculus with 8 samples.

Results

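Angptl4, Vldlr, Lpl, Lipc, Lrp1, Scarb1, Lrpap1 and Sort1 encode a secreted lipase inhibitor, 2 lipases and a set of receptors, with their chaperone and sorting proteins, that govern how cells handle circulating lipoproteins. They were found on the array by gene symbol, current or older, and every probe so annotated is reported. Of the 8 genes, 7 had a probe in the table, with 14 probes in all among 16304 probes and 10944 genes, and Lipc, hepatic lipase, is not analysed here. Vldlr had 5 probes, Sort1 had 4, and Angptl4, Lpl, Lrp1, Scarb1 and Lrpap1 had 1 each.

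The cells were primary hepatocytes of male C57Bl6/J mice, freed from the liver with collagenase and held in wells. The treated group was given 500 µM metformin, a biguanide drug that lowers blood glucose, and the reference wells were labelled control, both for 24 h. There were 4 metformin and 4 control samples with 1 Illumina bead array each, and the labels do not state the age of the mice. Nothing in the labels says that the wells came from separate animals or isolations, so the errors and p-values cover the variation among these wells alone, part or all of which may be technical. Levels are the log2 intensities deposited by the authors, on which 1 unit is a doubling of brightness. In such bulk samples fewer cells of a type and less RNA per cell cannot be told apart.

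Lipoprotein lipase breaks down the triglycerides of circulating lipoproteins at the vessel wall, where GPIHBP1 holds it, and ANGPTL4 inactivates it. The remnants and other lipoproteins are taken up by receptors of the LDL receptor family, among them VLDLR and LRP1, which bind apolipoprotein E, while SCARB1 takes cholesterol from high density lipoproteins. In the adult liver LPL and VLDLR are normally low, ANGPTL4 is made by hepatocytes during fasting, and LRP1 and SCARB1 are main hepatocyte receptors.

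The defining markers of hepatocytes were present but uneven. Of 12 listed, 10 were measured, and Ttr (transthyretin, mean 13.66 log2 units), Ass1 (10.85), Serpina1a (10.58), Cyp2e1 (10.44) and Hnf4a (10.12) were bright. The probes of Alb, albumin (5.85), and Fgb, the fibrinogen beta chain (4.69), lay below the array median of 6.48. The summed intensity of the 10, in which Ttr weighs most, ran from 16837 to 23211 on metformin arrays and from 18001 to 22382 on control arrays. Of the 10, 0 passed the threshold in limma, and 0 did so at an unadjusted p under 0.05. Such an unadjusted p was common here, found in limma for 2573 of all 10944 genes, each read at its brightest probe. Markers of other liver cells were also detected. Of 6 biliary markers 3 were measured (Krt7, Krt19 and Sox9), all 3 with higher values in metformin (median difference 0.91 log2 units), 2 of them at an unadjusted p under 0.05 and 0 past the threshold in limma. Their summed intensity was 515 to 1063 on metformin arrays and 366 to 693 on control arrays. Of 12 stellate cell and fibroblast markers 9 were measured, 6 with higher and 3 with lower values in metformin, 1 of them at an unadjusted p under 0.05 and 0 past the threshold in limma, and their sum was 2578 to 4855 on metformin arrays and 2441 to 4431 on control arrays. The part of these cells in the results was not tested. Correlations across probes were 0.977 to 0.989 between metformin arrays, 0.969 to 0.986 between control arrays and 0.959 to 0.981 between the groups.

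With metformin Angptl4 fell and Vldlr rose, and no probe of the other 5 genes passed the threshold. A probe is called past the threshold when its adjusted p is under 0.05 in limma, a linear model fitted to all 16304 probes with Benjamini-Hochberg adjustment. The genes were chosen partly on the log2 intensities of this same comparison, in which Angptl4 and Vldlr were known to have passed, so their differences are a description and no p-value is given for them. Of the 14 probes, 3 were higher and 1 lower past the threshold, also with the replicate number as a block. Among all probes 2.72% of the probes were higher and 2.93% lower, 5.64% in all, or 3.45% and 3.34% with the block. The 4 metformin arrays all lay above the 4 control arrays at 3 of the 14 probes and all below them at 2, where 7.1% and 7.46% of all probes did so.

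**Figure D1:**
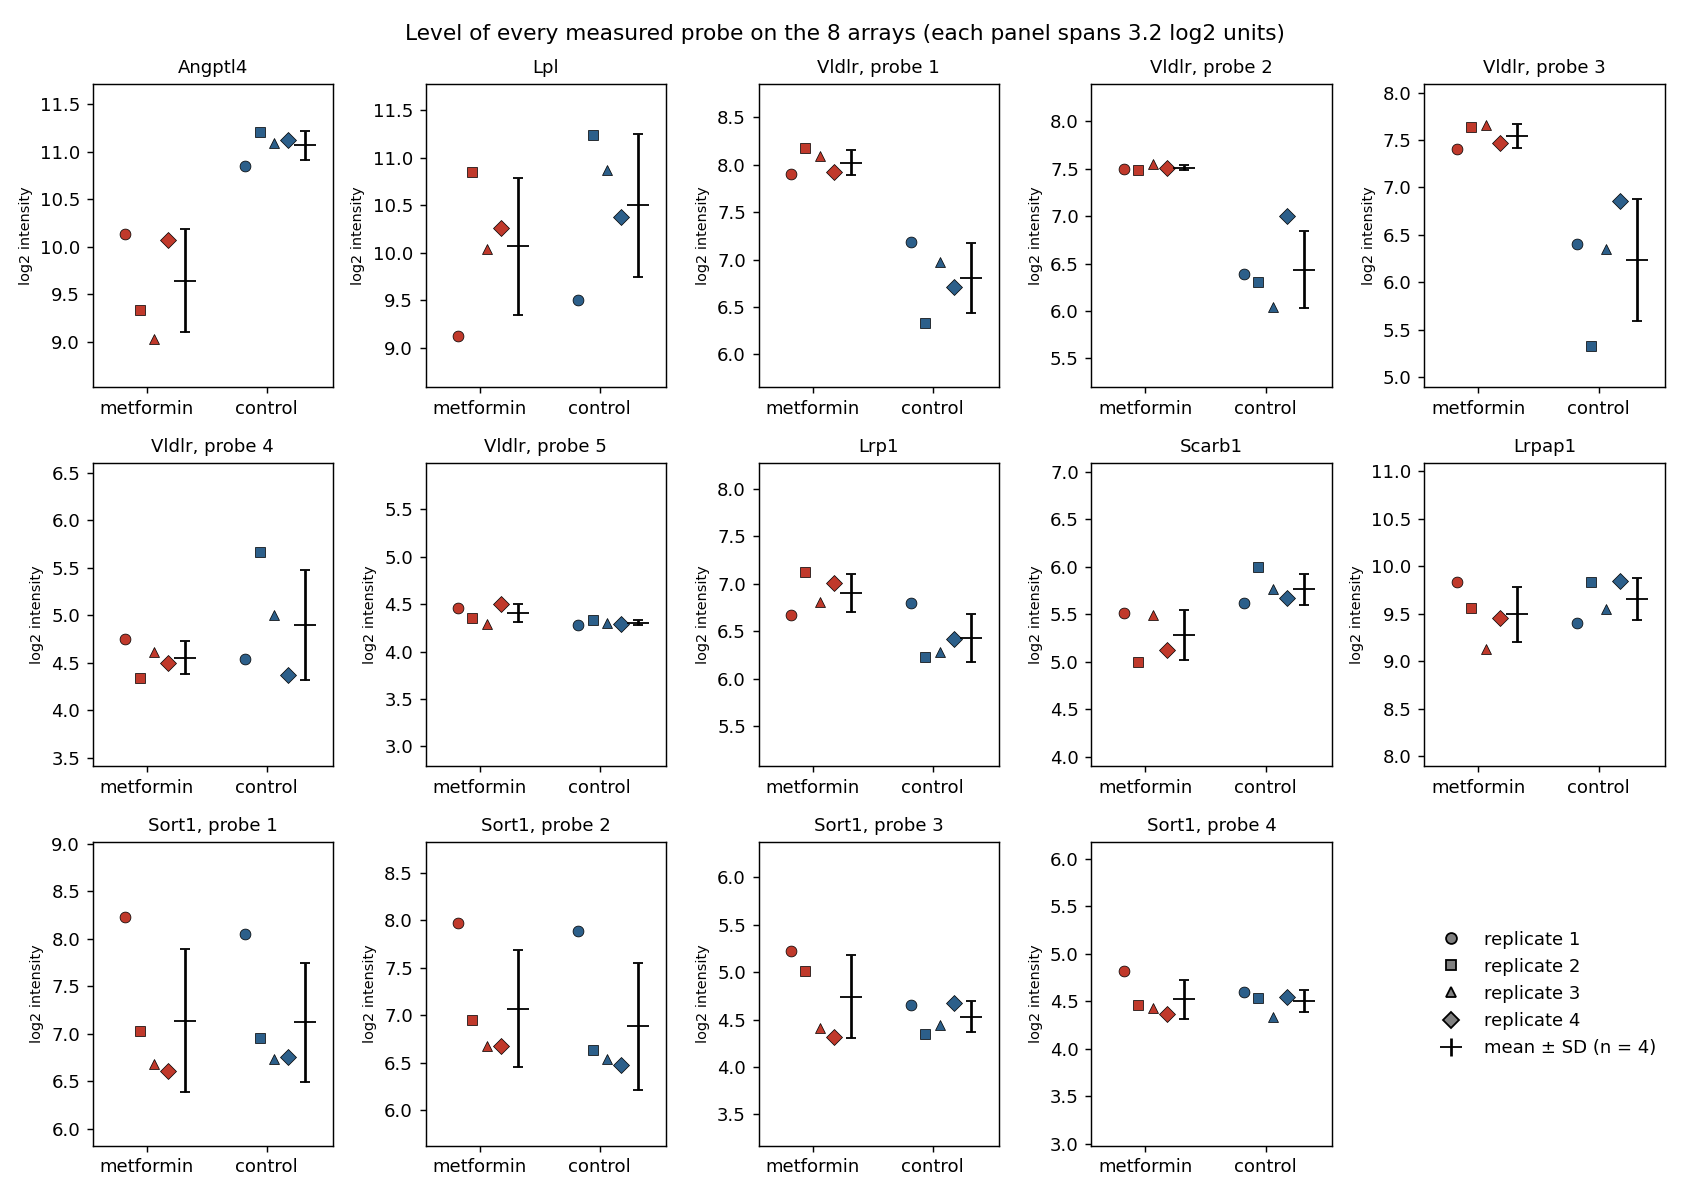
Log2 intensity (vertical axis) of each of the 14 probes on the 4 metformin (red) and 4 control (blue) arrays, with the replicate number as the marker shape and the mean ± SD beside each group. Angptl4 lies between 9.03 and 10.14 on metformin arrays and between 10.85 and 11.21 on control arrays, Vldlr probes 1 to 3 are higher on all metformin arrays, and replicate 1 stands apart in both groups for Sort1 probes 1 and 2.

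Angptl4, angiopoietin-like protein 4, is secreted by hepatocytes and fat cells and is a classic target of the fatty acid receptors of the PPAR family. Its probe (ILMN_2759365) read 10.14, 9.34, 9.03 and 10.07 log2 units in metformin replicates 1 to 4, against 10.85, 11.21, 11.10 and 11.12 in control replicates 1 to 4. Every metformin array lay below every control array, the nearest arrays being replicate 1 of each group, and the metformin arrays were more spread than the control arrays. The means were 9.64 ± 0.55 with metformin and 11.07 ± 0.15 in controls (SD, n = 4 each).

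Angptl4 thus fell by 1.43 ± 0.24 log2 units (difference ± SE, n = 4 per group), to 0.372 times the control level. Its difference ranked 57 from the lowest among the 16304 probes. Set against the control array with the same replicate number, the 4 metformin arrays differed by -0.72, -1.87, -2.06 and -1.05 log2 units. The probe passed the threshold in 7 of the 8 fits that left out 1 array. Without metformin replicate 2 it did not, with a difference of -1.32. Calls over all probes then fell from 443 higher and 477 lower to 82 and 107.

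Vldlr, the very low density lipoprotein receptor, binds triglyceride-rich particles that carry apolipoprotein E and is best known from heart, muscle and fat. Its 5 probes, numbered here from the brightest to the dimmest, fell into 3 that rose and 2 near the floor of the scale, although the platform assigns all 5 to the same transcript record. Probe 1 (ILMN_2796472) read 7.90, 8.17, 8.09 and 7.92 log2 units on the metformin arrays, against 7.19, 6.33, 6.98 and 6.71 on the control arrays. Probe 2 (ILMN_2515601) read 7.50, 7.49, 7.55 and 7.50 on the metformin arrays, against 6.39, 6.31, 6.04 and 7.002 on the control arrays. Probe 3 (ILMN_1218264) read 7.40, 7.63, 7.66 and 7.47 on the metformin arrays, against 6.41, 5.33, 6.36 and 6.86 on the control arrays.

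At all 3 probes the groups did not overlap, and the metformin arrays lay closer together than the control arrays. The SD over the 4 metformin arrays was 0.13, 0.026 and 0.12 at probes 1, 2 and 3, against 0.37, 0.41 and 0.64 over the 4 control arrays. The control arrays did not keep 1 order across the probes. Control replicate 2 was the lowest of the 4 at probes 1 and 3 and control replicate 3 at probe 2, while control replicate 4 was the highest at probes 2 and 3.

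The rise was 1.22 ± 0.18 log2 units at probe 1, 1.07 ± 0.19 at probe 2 and 1.30 ± 0.27 at probe 3 (difference ± SE, n = 4 per group), or 2.33-fold, 2.11-fold and 2.46-fold. Each of the 3 probes was higher in metformin for all 4 replicate numbers, by 0.71 to 1.84, 0.50 to 1.51 and 0.61 to 2.30 log2 units. Probe 1 passed the threshold in all 8 fits without 1 array. Probe 2 did not pass without metformin replicate 2 (difference 1.08) or metformin replicate 3 (1.06), and probe 3 did not pass without control replicate 3 (1.34), metformin replicate 2 (1.27) or metformin replicate 3 (1.26). Probe 3 did not pass without both arrays numbered 1 either (1.403). Calls over all probes, 443 higher and 477 lower in the main fit, were 82 and 107 without metformin replicate 2. They were 69 and 114 without metformin replicate 3 and 134 and 148 without control replicate 3. Without both arrays numbered 1 they were 489 and 555.

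The other 2 Vldlr probes were dim and went with neither direction. Probe 4 (ILMN_1230923), brighter than only 19.0% of all probes, read 4.76, 4.34, 4.61 and 4.50 log2 units with metformin and 4.54, 5.67, 4.999 and 4.38 in controls, so the groups overlapped and the difference was -0.35 ± 0.26. Probe 5 (ILMN_2458671), brighter than 1.61% of all probes, read 4.29 to 4.50 with metformin and 4.28 to 4.34 in controls, a difference of 0.10 ± 0.10. Levels this close to the lowest value of the table, 4.16, can understate a change, and how far these probes stood above background is unknown.

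**Figure D2:**
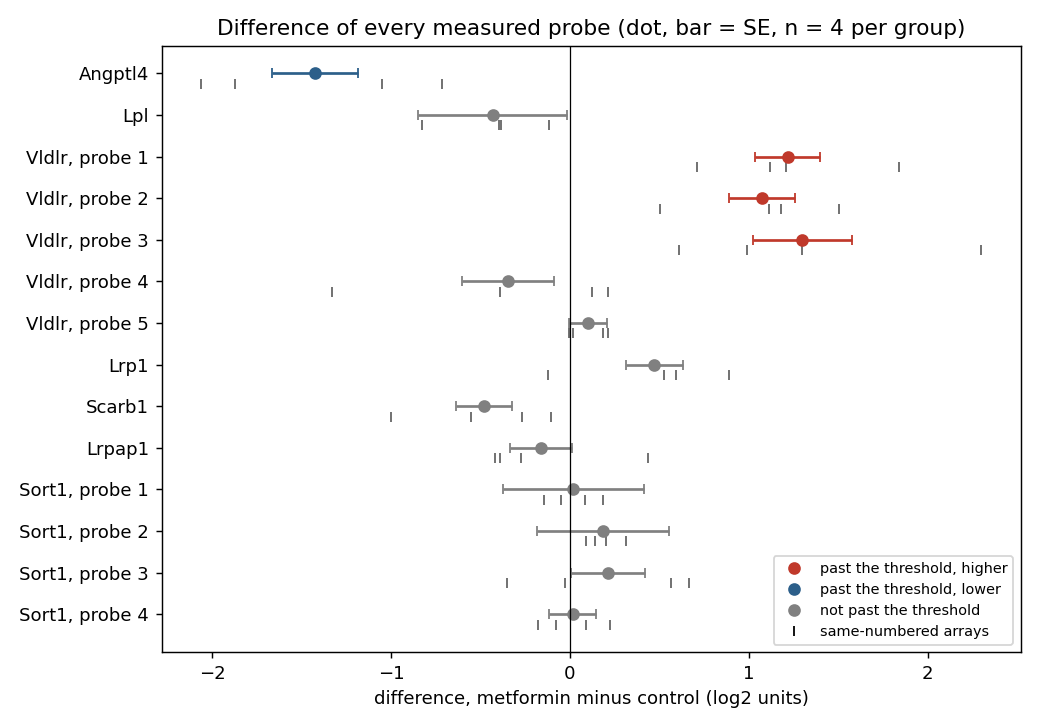
Difference between metformin and control (horizontal axis, log2 units) of each probe, as a dot with its SE, with the 4 differences between same-numbered arrays as short bars under it. Angptl4 lies at -1.43 and Vldlr probes 1 to 3 at 1.07 to 1.30, while the other 10 probes lie between -0.48 and 0.47.

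RefSeq lists 2 starts of Vldlr in the mouse assembly GRCm38.p6, both on the plus strand of chromosome 19, 536 bases apart. The sequence before each start is shown because Vldlr is the member that rose, and because hypoxia-inducible factors, ATF4 and PPAR receptors are known from other work to act on it. The 250 bases before each start were searched on both strands for 4 motifs. These were the hypoxia response cores ACGTG and GCGTG, the C/EBP-ATF response element TGATGNAA and AGGTCANAGGTCA, a direct repeat of the half-site of PPAR receptors. The first line is the window before the upstream start, chr19:27216234-27216483, which held none of the 4. The next is a stretch of 30 bases of the window before the downstream start, chr19:27216809-27216838, in which capitals mark the only match, a TGATGNAA on the minus strand that begins 200 bases before that start.
Vldlr, upstream start: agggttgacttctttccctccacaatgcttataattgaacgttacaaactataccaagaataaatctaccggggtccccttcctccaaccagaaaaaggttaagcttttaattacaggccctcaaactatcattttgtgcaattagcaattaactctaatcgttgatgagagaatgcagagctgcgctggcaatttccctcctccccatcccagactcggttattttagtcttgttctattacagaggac
Vldlr, downstream start: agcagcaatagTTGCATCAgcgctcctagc

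Read on the motif's own strand the match is TGATGCAA. Of the 32851 promoter windows of this length in the RefSeq table, 3.45% held TGATGNAA, 16.6% held ACGTG, 28.2% held GCGTG and 0.0335% held AGGTCANAGGTCA. The match is a description of these letters and not a measured site, and no reading follows from the motifs without a match. No source used here names a genome build for the array, so the probes were not placed on these starts.

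Lpl, lipoprotein lipase, is the enzyme that ANGPTL4 inhibits, and is made mainly by fat, muscle and macrophages. Its probe (ILMN_2692723) read 9.12, 10.85, 10.04 and 10.26 log2 units in metformin replicates 1 to 4, against 9.51, 11.25, 10.87 and 10.37 in control replicates 1 to 4. The groups overlapped, and the probe varied more between replicates than between groups, with replicate 1 the lowest and replicate 2 the highest in both. The means were 10.07 ± 0.72 with metformin and 10.50 ± 0.75 in controls (SD, n = 4 each), a difference of -0.43 ± 0.42 that did not pass the threshold.

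Between same-numbered arrays Lpl was lower with metformin for all 4 replicate numbers, with differences of -0.39, -0.40, -0.83 and -0.11 log2 units. With the replicate number as a block the SE fell to 0.15, and the difference still did not pass the threshold. Without metformin replicate 1 the difference was -0.12, and without control replicate 1 it was -0.76.

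The marker sums of several cell types are set beside Lpl here, as a description of their order over the arrays. The summed intensity of the 9 measured of 12 Kupffer cell and macrophage markers was 916, 2385, 1640 and 1211 in metformin replicates 1 to 4, and 1270, 3469, 3154 and 1316 in control replicates 1 to 4. Replicate 1 was the lowest and replicate 2 the highest in both groups, as for Lpl. The hepatocyte sum, in which the bright marker Ttr weighs most, had these same lowest and highest arrays. It was 16837, 23211, 20977 and 20420 in metformin replicates 1 to 4, and 18001, 22382, 19734 and 18213 in control replicates 1 to 4. Of the 9 macrophage markers, 8 had lower values with metformin and 0 passed the threshold in limma, nor did any have an unadjusted p under 0.05. Clec4f and Timd4, which define resident Kupffer cells, were near the floor at means of 4.56 and 4.42. The sum of the 12 sinusoidal endothelial markers was 1109, 3550, 2074 and 4307 in metformin replicates 1 to 4, against 1057, 2598, 1510 and 2122 in control replicates 1 to 4. On the control arrays this sum was lowest at replicate 1 and highest at replicate 2, as for Lpl. On the metformin arrays it was also lowest at replicate 1, but highest at replicate 4, where Lpl was not the highest. All 12 endothelial markers had higher values with metformin, 2 at an unadjusted p under 0.05, and 0 passed in limma. The stellate cell and fibroblast sum was the lowest of the metformin arrays at replicate 2 (2578), where Lpl was the highest. Of 7 adipocyte markers only Cidec and Lep were measured, at means of 5.18 and 4.48. The part of these cells in the Lpl values was not tested.

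**Figure D3:**
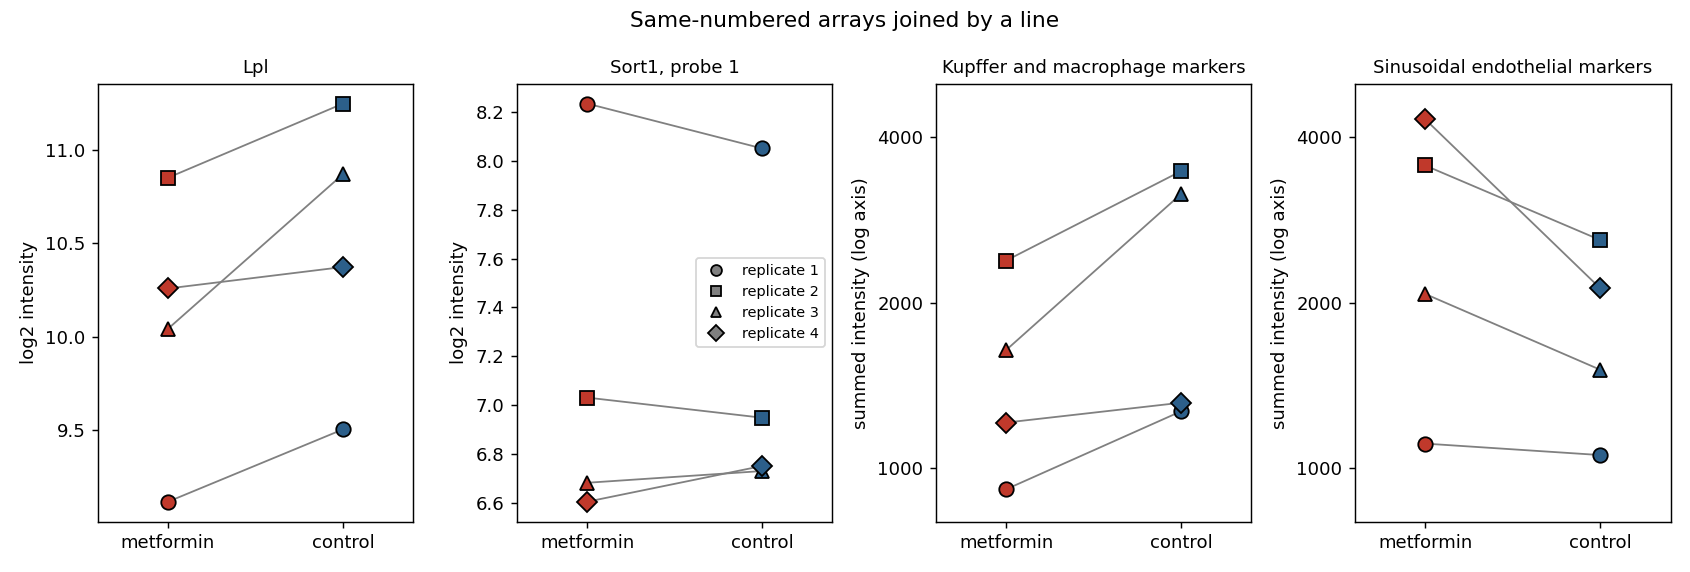
Log2 intensity of Lpl and of Sort1 probe 1, and summed intensity of Kupffer cell and macrophage and of sinusoidal endothelial markers on a log axis, with metformin arrays on the left, control arrays on the right and same-numbered arrays joined. Lpl is lower at the metformin end of all 4 lines, with differences of -0.83 to -0.11 log2 units, and replicate 1 is the lowest array of both groups for Lpl and both marker sums and the highest for Sort1.

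Lrp1, a large endocytic receptor that clears remnant lipoproteins and many other ligands, did not pass. Its probe (ILMN_1237723) read 6.67, 7.12, 6.81 and 7.01 log2 units on the metformin arrays, against 6.80, 6.23, 6.28 and 6.41 on the control arrays. Control replicate 1 overlapped the metformin arrays, and the other 3 control arrays lay below all 4 of them. The difference was 0.47 ± 0.16 (n = 4 per group). Without control replicate 1 it was 0.59 and passed the threshold, as it also did with array weights and without both arrays numbered 1 (0.67).

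Scarb1, the receptor through which hepatocytes take up cholesterol from high density lipoproteins, had lower values with metformin. Its probe (ILMN_1223315), brighter than 36.7% of all probes, read 5.51, 4.997, 5.50 and 5.12 log2 units on the metformin arrays, against 5.62, 5.996, 5.76 and 5.67 on the control arrays. The groups did not overlap, but the nearest arrays were 0.11 log2 units apart, both of them replicate 1. The difference of -0.48 ± 0.16 (n = 4 per group) did not pass the threshold, here or in any of the 8 fits without 1 array.

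Lrpap1, the receptor-associated protein, is a chaperone of the endoplasmic reticulum that keeps LRP1 and VLDLR from binding ligands before they reach the surface. Its probe (ILMN_2761472) read 9.84, 9.56, 9.13 and 9.46 log2 units on the metformin arrays, against 9.40, 9.83, 9.55 and 9.85 on the control arrays. The groups overlapped, and the difference was -0.16 ± 0.17 (n = 4 per group).

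Sort1, sortilin, is a sorting receptor of the Golgi that binds apolipoprotein B and LPL among other cargo. Its 4 probes, all assigned to 1 transcript record, showed no difference past the threshold. Probe 1 (ILMN_3005873) read 8.23, 7.03, 6.68 and 6.60 log2 units on the metformin arrays, against 8.05, 6.95, 6.73 and 6.75 on the control arrays, and probe 2 (ILMN_1219717) read 7.98, 6.95, 6.68 and 6.68 on the metformin arrays, against 7.88, 6.64, 6.54 and 6.48 on the control arrays. In both groups and at both probes replicate 1 was higher than the other 3 arrays by more than 1 log2 unit.

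The differences of Sort1 were 0.018 ± 0.39 at probe 1 and 0.19 ± 0.37 at probe 2 (difference ± SE, n = 4 per group), or 0.018 ± 0.12 and 0.19 ± 0.12 with the replicate number as a block. The 4 differences between same-numbered arrays at probe 2 were all above 0, from 0.091 to 0.31, while those of probe 1 lay between -0.15 and 0.18. Without both arrays numbered 1, an alternative chosen after the data were seen, the difference was -0.037 at probe 1. Probes 3 (ILMN_2685772) and 4 (ILMN_1232295) were dim, with arrays between 4.32 and 5.22 log2 units, overlapping groups and differences of 0.21 ± 0.21 and 0.015 ± 0.13.

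**Figure D4:**
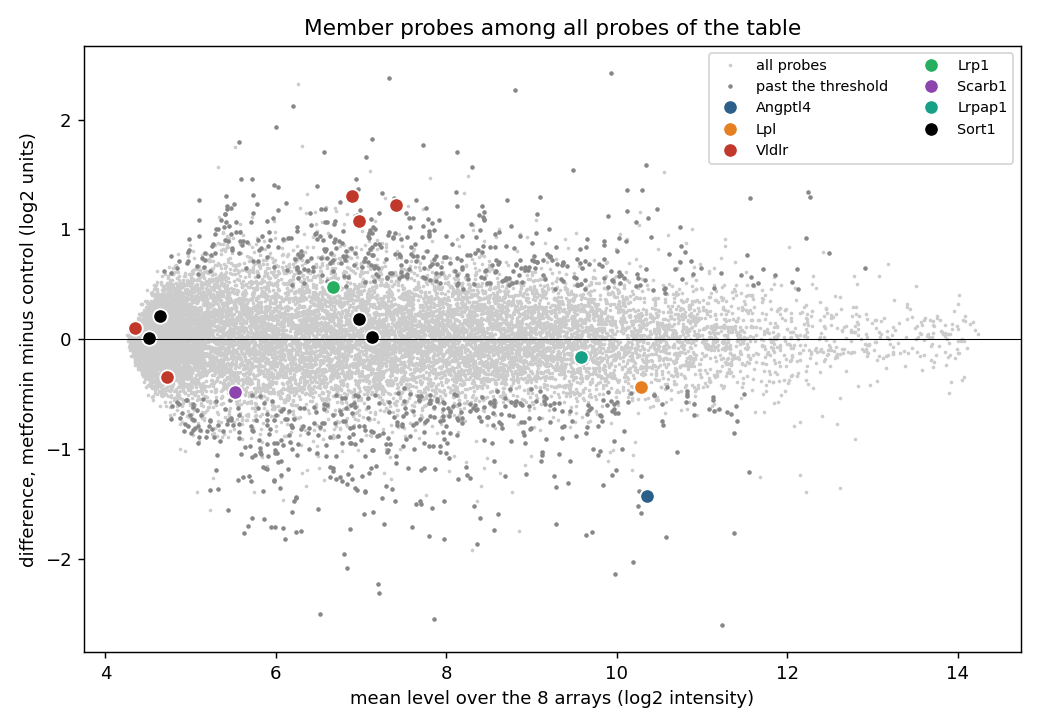
Difference between metformin and control (vertical axis, log2 units) against the mean level over the 8 arrays (horizontal axis, log2 intensity) of all 16304 probes, with the 920 past the threshold in dark grey and the 14 probes in colour. Angptl4 and 3 of the 5 Vldlr probes lie among the dark points, and the 2 dim Vldlr probes lie at the left end, at -0.35 and 0.10.

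The genes whose profile over the 8 arrays was most like that of Angptl4 and of Vldlr probe 1 were found by the root-mean-square difference, after each profile was set to its own mean over the control arrays. Over 10735 genes at their brightest probe, with predicted loci left out, the nearest to Angptl4 were Chaf1a, a subunit of chromatin assembly factor 1 (0.19 log2 units), Rpa2, a subunit of the single-strand DNA binding protein RPA (0.19), and Ncapd2, a condensin subunit (0.21), whose own differences were -1.27, -1.28 and -1.45. The probes of Ncapd2 ranged from -1.45 to -0.33. The nearest to Vldlr were Slc27a1, a fatty acid transporter (0.16), Pcx, pyruvate carboxylase (0.16), and Stx4a, a syntaxin of the plasma membrane (0.17), with differences of 1.33, 1.15 and 1.13. All 6 had been selected for likeness, so their differences are a description, and the median root-mean-square difference over all these genes was 1.10 from Angptl4 and 0.91 from Vldlr.

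Other genes of the pathway, in 6 lists by role, were read at the brightest probe of each gene. Of 135 genes listed, 97 were measured, of which 4 were higher and 2 lower past the threshold, together 6.19%, against 5.94% of all 10944 genes (2.98% higher and 2.96% lower). Their median difference was 0.11 log2 units, against 0.010 over all genes. The counts at an unadjusted p under 0.05 given below for each list are to be read beside 2573 of the 10944 genes in limma. The calls of these 6 genes changed when single arrays were left out, and of the 97 none passed without metformin replicate 2 or 3. Calls over all probes fell as well, from 443 higher and 477 lower to 82 and 107 without metformin replicate 2. They were 69 and 114 without metformin replicate 3. Without control replicates 2, 3 and 4 they were 159 and 165, 134 and 148, and 193 and 187. Among the 97, leaving out control replicate 2 or 3 gave 1 higher and 0 lower, control replicate 4 gave 3 and 0, and control replicate 1 gave 3 and 3. Leaving out metformin replicate 1 gave 2 and 3, and metformin replicate 4 gave 4 and 1.

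Genes that act on the lipases did not pass. Of 9 measured of 14, 0 were called in limma (median difference 0.14). An unadjusted p under 0.05 was found for 1, Apoc2, the cofactor that activates LPL, at -0.32 ± 0.13 (limma adjusted p = 0.192, range over the alternatives 0.123 to 0.835). A further Apoc2 probe had a difference of 0.42, in the opposite direction. Gpihbp1, the endothelial anchor of LPL, read 6.57, 7.75, 6.90 and 8.00 log2 units on the metformin arrays, against 6.16, 7.03, 6.53 and 7.03 on the control arrays. It was higher for all 4 replicate numbers, and its difference of 0.62 ± 0.33 had a limma adjusted p = 0.293, which the replicate block brought to 0.0476. The order of its metformin arrays was that of the summed endothelial markers given above, and also that of the biliary sum (515, 1022, 668 and 1063). On the control arrays the endothelial sum was higher at replicate 2 than at replicate 4, where Gpihbp1 was level. The part of those cells was not tested.

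Among other lipoprotein receptors and their partners 19 of 30 were measured, with 0 higher and 1 lower past the threshold (median difference 0.14, 3 at an unadjusted p under 0.05). Sdc4, syndecan 4, a heparan sulfate proteoglycan, fell to 9.22 ± 0.28 log2 units with metformin, against 10.23 ± 0.40 in controls (SD, n = 4 each; difference -1.003 ± 0.22, limma adjusted p = 0.0302). Leaving out any of control replicates 2, 3 and 4 or metformin replicates 2 and 3 took it past 0.05, to adjusted p of 0.0725 to 0.0955. Lrp4, another member of the LDL receptor family, had a difference of 0.60 ± 0.16 (limma adjusted p = 0.0565, or 0.0347 with the replicate block). Of the apolipoproteins and assembly factors 14 of 16 were measured and 0 passed in limma, with 4 at an unadjusted p under 0.05 and a median of -0.031. Apoe, the ligand of VLDLR and LRP1, was nearest to the threshold, with all 4 metformin arrays (11.84, 12.14, 11.79 and 11.92) above all 4 control arrays (11.47, 11.36, 11.60 and 11.48) and a difference of 0.44 ± 0.12 (limma adjusted p = 0.0622, range over the alternatives 0.0289 to 0.159).

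Of 12 measured of 17 other lipases, 1 was higher and 0 lower past the threshold (median difference 0.088, 1 at an unadjusted p under 0.05). It was Pnpla8, a phospholipase of mitochondria and peroxisomes (0.65 ± 0.16, limma adjusted p = 0.0417), and it passed only without metformin replicate 1 or 4 among the 8 fits that left out an array, with an adjusted p of up to 0.129. Ces1d, a liver carboxylesterase that acts on triglycerides, had a difference of 0.73 ± 0.39 (limma adjusted p = 0.299, or 0.0259 with the replicate block).

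Among targets of PPAR receptors, the class to which Angptl4 belongs, 1 of 22 measured (33 listed) was higher and 0 lower past the threshold. Of the 22 differences 13 were above 0 and 9 below, with a median of 0.085 and 6 at an unadjusted p under 0.05. The 1 past the threshold was Plin4, a lipid droplet coat protein (1.93 ± 0.34, limma adjusted p = 0.0170). It did not pass without metformin replicate 2 (adjusted p = 0.0556) or 3 (0.0619). Plin5, of the same family, had a difference of 0.86 ± 0.31 (limma adjusted p = 0.132, or 0.0332 with the replicate block). Plin2, also of this family and much brighter (mean 11.47), went the other way, with every metformin array below every control array. Its difference was -0.43 ± 0.13 (limma adjusted p = 0.0830, or 0.0689 with the replicate block).

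Of the factors known to control Angptl4 or Vldlr, 21 of 25 were measured, with 2 higher and 1 lower past the threshold (median difference 0.22, 6 at an unadjusted p under 0.05). Srebf2, which drives sterol genes (0.51 ± 0.11, limma adjusted p = 0.0305, blocked 0.0543), and Creb3l3, a liver factor of the fasted state (1.29 ± 0.30, adjusted p = 0.0374, or 0.0556), were higher. Nfe2l2, the oxidative stress factor NRF2, was lower (-0.77 ± 0.19, limma adjusted p = 0.0460, or 0.0743 with the block), with a further probe at 0.14. Each of the 3 passed in 2 of the 8 fits without 1 array. Srebf2 did so without control replicate 1 or metformin replicate 4, Creb3l3 without control replicate 4 or metformin replicate 4, and Nfe2l2 without control replicate 1 or metformin replicate 1. Pparg, a PPAR receptor, had a difference of 0.69 ± 0.19 (limma adjusted p = 0.0627, or 0.0292 with the block).

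**Figure D5:**
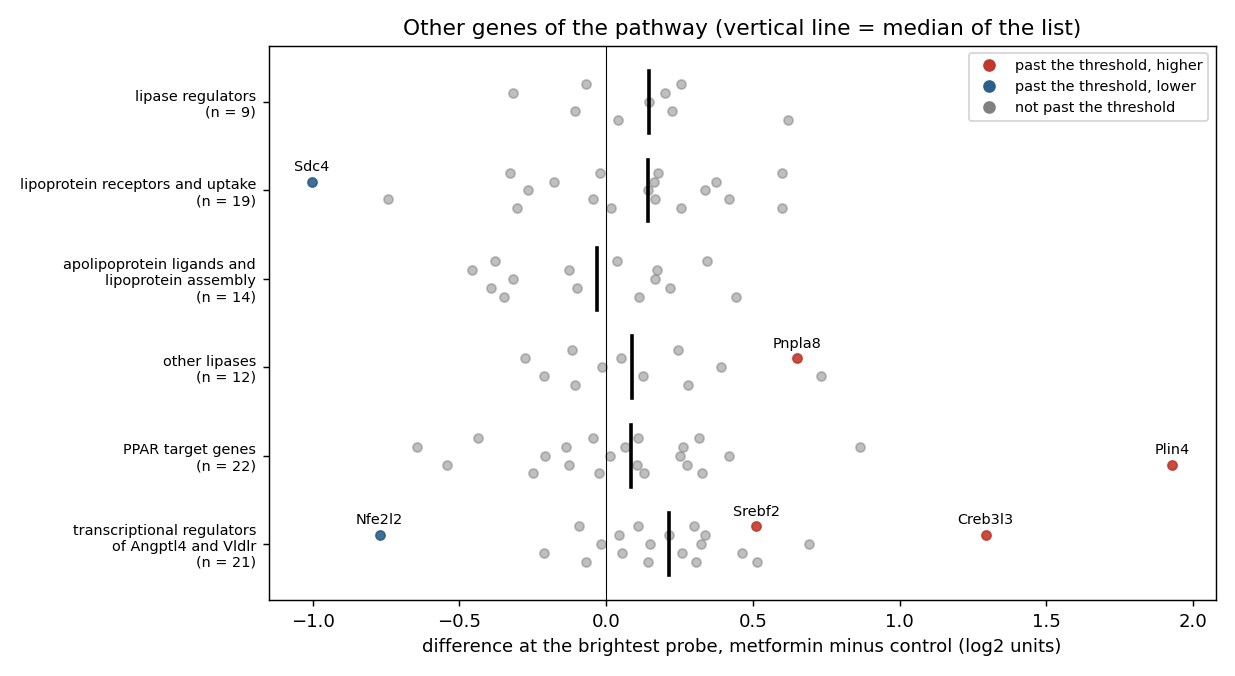
Difference between metformin and control at the brightest probe (horizontal axis, log2 units) of the measured genes of the 6 lists, with the median of each list as a vertical line. The genes past the threshold are named, Plin4, Creb3l3, Pnpla8 and Srebf2 to the right and Sdc4 and Nfe2l2 to the left, and the list medians lie between -0.031 and 0.22.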

How the data were processed

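Total RNA of 8 wells (TRIzol) was biotin-labelled and put on an Illumina mouse bead array, per the labels' protocols. The values are log2 intensities deposited by the authors, between 4.16 and 14.4, with 0 missing. The submitters' processing notes name limma 3.26.9 and R 3.2.3, and no source used here states the background correction, normalization or any probe filter. The arrays' medians lay within 0.00080 log2 units and their values at any rank within 0.086, so no further normalization was applied. Precision is limited by the small number of arrays.

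Probes were named by the platform's table (15301 with 1 symbol, 0 with several, 1003 unnamed here). Of the named probes, 15294 took the symbol that RefSeq's table of GRCm38.p6 gives their Entrez number, whether or not it differed from the platform's. Members were matched by symbol. Promoter sequences are RefSeq's, and 4 of the 8 genes had one in the table.

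A linear model of metformin minus control was fitted to every probe with limma 3.58.1 (lmFit, eBayes) in R 4.3.3 on all 8 arrays, two-sided, with Benjamini-Hochberg adjustment over the 16304 probes and a threshold of 0.05. It was tested on simulated data with known changes. The simulated noise was independent between arrays, so that test did not cover the pairing described below. A list gene is read at its brightest probe. The members and lists were chosen with earlier results of these data known. The genes named were every member probe, per list up to 4 genes past the threshold, by smallest p (with none past it, the 1 of smallest p), and the 3 nearest profiles of Angptl4 and of Vldlr. List genes named because the replicate block changed their call (Gpihbp1, Lrp4, Ces1d, Plin5, Pparg) were chosen after their values were seen. So was Plin2, named because it is of the family of Plin4 and Plin5.

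Deviations from the group means correlated between same-numbered metformin and control arrays at 0.27, 0.25, 0.13 and 0.20. All 4 were over 0.1 and their mean was the highest of 24 pairings, which was taken as pairing of the samples, from the data alone. The main fit leaves this pairing out, so calls, SE and adjusted p given without mention of the block do not use it. The alternatives were the replicate block, each array left out, quantile normalization, an offset of 16, leaving out the dimmest 25% or 50% of probes, array weights, an intensity trend, 1 value per gene and, chosen after the data were seen, leaving out both arrays numbered 1.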

Additional observations from a re-analysis of the deposited data

Results flagged for a closer look

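Control replicate 1 stood apart from the other 3 control arrays at both brighter Sort1 probes, by a gap to the nearest array that made up most of the group's range. It read 8.05 log2 units at probe 1 (ILMN_3005873), where the others lay between 6.73 and 6.95, and 7.88 at probe 2 (ILMN_1219717), where they lay between 6.48 and 6.64. Both probes report the same gene, and they were the only 2 so marked among the 28 sets of 4 arrays tested, of which chance marks about 5%. Metformin replicate 1 read 8.23 and 7.98 at these probes, also the highest of its group.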

How the results depend on the processing

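All 215 values of the member probes under the alternatives stayed within 1 SD of the reported value, and no probe past the threshold changed sign. In 10 of them 3 Sort1 probes, none past it, changed sign. For most alternatives this outcome was fixed in advance, so it does not show stability. Leaving out 1 array, or both numbered 1, cannot move a difference by over 1 SD, or change its sign where the groups do not overlap. The block, the intensity trend and the filters on dim probes leave the difference as it is. Quantile normalization could change little, since the arrays' values at any rank already lay within 0.086 log2 units. The replicate block changed no call among the 14 probes, where 3 were higher and 1 lower as before. The number of member probes past the threshold without 1 array was 1 to 4 higher and 0 to 1 lower. With 1 value per gene, by the brightest probe or by the mean of the probes, 1 was higher, Vldlr, and 1 lower, Angptl4, since each gene then counts once. Without both arrays numbered 1, 3 were higher and 1 lower, but the 3 were Vldlr probes 1 and 2 and Lrp1, since Vldlr probe 3 no longer passed and Lrp1 did. Over all probes the counts were 443 higher and 477 lower, 802 and 862 with array weights, and 69 to 521 and 107 to 565 without 1 array. List genes past the threshold, 4 higher and 2 lower, were 7 and 1 with the replicate block, 7 and 5 with array weights, 7 and 4 with an intensity trend, 8 and 1 with the mean of the probes, 4 lower without the dimmest 50% of probes, and 0 to 4 and 0 to 3 without 1 array; the cause was not tested. Dim probes limit what can be seen of Scarb1, Vldlr probes 4 and 5 and Sort1 probes 3 and 4.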
